A study of Mus musculus with 21 samples.

Results

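Genes that mark heat-producing fat cells were followed in the epididymal fat pad, a visceral white depot of male mice. The set holds 8 genes, chosen by symbol from the 38087 genes of the deposited exon count table: Ucp1, Dio2, Cidea, Cox8b, Cox7a1, Prdm16, Ebf2 and Kcnk3. Of these, 7 passed the filter on low counts, together with 18334 genes in all, and Ucp1 did not. The tissue came from male C57BL/6j mice aged 15 to 16 weeks, fed ad libitum, that were either germ-free, kept without microbes, or conventionally raised with a gut microbiota. The germ-free arm had 9 libraries, 2 at each of zeitgeber times (ZT, hours after lights on) 6, 10 and 22 and 1 at each of ZT02, ZT14 and ZT18. The conventional arm had 12 libraries, 2 at each of the 6 times. Both arms shared strain, sex, age and feeding. Nothing in the labels ties a library to an individual animal. The p-values therefore describe library-to-library spread, which may be technical.

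Brown and beige adipocytes burn fuel to make heat. Their defining protein is UCP1, which lets protons leak across the inner mitochondrial membrane, and cold or noradrenaline turns its gene on through beta-adrenergic receptors and cyclic AMP. Around it sit DIO2, the deiodinase that makes active thyroid hormone inside the cell, the lipid droplet protein CIDEA, and the cytochrome c oxidase subunits COX8B and COX7A1, forms of the enzyme shared with heart and skeletal muscle. PRDM16 and EBF2 are transcription factors of the brown lineage, and KCNK3 is a potassium channel enriched in brown fat cells. In mice, epididymal fat is known as a depot that browns poorly.

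Total counts per library ranged from 28900903 to 48348181 in germ-free and from 24388294 to 37097857 in conventional mice, so that 1 read stood for 0.0221 to 0.0446 CPM (counts scaled to the library's TMM-adjusted total). White adipocyte markers, such as adiponectin, summed to 23641 to 36152 CPM over 11 genes in germ-free and 21707 to 33306 CPM in conventional libraries, so markers of the labelled tissue were abundant in every library. Transcripts of neighbouring tissues were present in both arms. Epididymis, testis and accessory gland markers summed to 0.228 to 399.6 CPM in germ-free and 0.763 to 1441 CPM in conventional libraries, and ciliated duct markers to 2.38 to 169 CPM and 2.45 to 64.1 CPM. In all, 8 libraries, 3 germ-free and 5 conventional, exceeded 5 times the median of all libraries in either list, and the results below are also given without them where that matters. As this was bulk tissue, fewer cells of a type and less RNA per cell cannot be told apart.

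Ucp1 was close to undetected in both arms. It had 14 reads in all 9 germ-free libraries together and 11 reads in all 12 conventional ones. Per library it ranged from 0 to 3 reads in germ-free and from 0 to 4 in conventional mice, with at least 1 read in 8 of 9 germ-free and in 5 of 12 conventional libraries. The summed reads corresponded to 0.0430 CPM in germ-free mice (95% exact Poisson interval 0.0235 to 0.0721) and 0.0292 CPM in conventional mice (0.0146 to 0.0522), intervals that cover counting error only and that overlap. In a 2-sided exact permutation test within time points, chosen after its counts were seen, the difference did not pass (p = 0.288).

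Per length, the other members spanned a wide range. Levels here are reads per kilobase of exon on the CPM scale (RPKM). In germ-free libraries Cox8b averaged 32.3 RPKM, Ebf2 6.94, Kcnk3 5.27, Cidea 4.00, Cox7a1 3.85, Prdm16 0.564, Dio2 0.444 and Ucp1 0.0259 RPKM. In conventional libraries Cox8b averaged 9.63 RPKM, Ebf2 7.33, Kcnk3 3.90, Cox7a1 2.87, Cidea 1.07, Prdm16 0.541, Dio2 0.129 and Ucp1 0.0173 RPKM. In germ-free libraries the range of Cox8b, 17.1 to 78.2 RPKM, lay wholly above that of Ebf2, 5.52 to 9.18 RPKM. In conventional libraries those ranges overlapped, at 4.01 to 20.9 RPKM for Cox8b and 5.56 to 8.93 RPKM for Ebf2. Ebf2, Kcnk3, Cidea and Cox7a1 overlapped with their neighbours in that order in both arms. Ucp1 lay below every other member in every library.

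Dio2, Cidea and Cox8b were 3.15-fold, 3.43-fold and 3.23-fold higher in germ-free fat, while Prdm16, Ebf2, Kcnk3 and Cox7a1 did not pass the test. Of the 7 members tested, 3 rose and 0 fell, where 15.3% of all genes tested rose, 11.6% fell and 26.9% changed in either direction. Arms were compared with edgeR's quasi-likelihood test over all 21 libraries, with time of day as a factor and an adjusted p of 0.05 as the threshold. For 0 of 7 members were the arms free of overlap, against 0.295% of all genes with every germ-free library higher and 0.371% with every germ-free library lower.

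The starts of 3 members are shown, picked by their results to set genes that rose, Dio2 and Cox8b, beside the defining gene that stayed near 0 reads, Ucp1. The start of Cidea, which also rose, is not shown. Each window runs from 250 bases before to 50 bases after the RefSeq gene start in build GRCm38.p6, 5′ to 3′ on the gene's strand, and capitals mark matches on either strand to the cyclic AMP response element core TGACG or the nuclear receptor core motif AGGTCA.
Dio2, chr12:90738989-90739288, minus strand: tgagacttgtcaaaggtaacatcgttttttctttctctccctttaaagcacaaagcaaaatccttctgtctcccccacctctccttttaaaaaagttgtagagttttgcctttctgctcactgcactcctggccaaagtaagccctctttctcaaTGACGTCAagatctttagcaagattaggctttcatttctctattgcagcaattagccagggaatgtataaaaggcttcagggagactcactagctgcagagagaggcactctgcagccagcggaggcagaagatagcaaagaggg
Cox8b, chr7:140900397-140900696, minus strand: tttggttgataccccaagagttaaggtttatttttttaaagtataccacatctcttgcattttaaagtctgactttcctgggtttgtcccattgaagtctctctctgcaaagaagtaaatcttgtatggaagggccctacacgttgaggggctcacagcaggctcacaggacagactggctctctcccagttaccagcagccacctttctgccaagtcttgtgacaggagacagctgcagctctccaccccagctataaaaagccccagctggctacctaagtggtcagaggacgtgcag
Ucp1, chr8:83290098-83290397, plus strand: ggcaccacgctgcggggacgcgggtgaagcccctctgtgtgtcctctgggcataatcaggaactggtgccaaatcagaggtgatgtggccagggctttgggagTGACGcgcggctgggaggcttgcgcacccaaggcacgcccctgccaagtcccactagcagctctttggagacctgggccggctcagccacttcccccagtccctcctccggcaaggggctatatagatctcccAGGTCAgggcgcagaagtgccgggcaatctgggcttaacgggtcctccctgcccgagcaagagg

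In the Dio2 window, TGACG matched on both strands, and the matches overlap in 1 palindrome from base -95 to -88 before the start. The Ucp1 window held TGACG from base -147 and AGGTCA from base -14. The Cox8b window held neither, nor the E-box CACGTG nor CCAAT, which the other 2 windows also lacked. The windows of Cox7a1 and Prdm16, not shown, held CCAAT alone of these motifs. Of the 27025 genes with a window, 21.02% hold TGACG on either strand, 16.0% AGGTCA, 7.24% CACGTG and 37.9% CCAAT. A match is a description of the sequence and shows no binding.

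Dio2, which converts thyroxine to active thyroid hormone, had a lowest, median and highest value of 0.826, 1.66 and 6.86 CPM in germ-free libraries, against 0.446, 0.617 and 1.40 CPM in conventional libraries. All 9 germ-free libraries lay above the conventional median and 6 lay above the conventional maximum. The means were 2.58 ± 2.10 CPM in germ-free (SD, n = 9) and 0.752 ± 0.313 CPM in conventional mice (SD, n = 12), and the log2 fold change was 1.66 ± 0.33 (SE, adjusted p = 0.00190). At ZT06, ZT10 and ZT22 alone, the times with 2 libraries in each arm, the Dio2 call was lost (log2 fold change 1.43 ± 0.46, adjusted p = 0.0705).

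Cidea, a protein of the lipid droplet surface that helps droplets fuse and grow, had 2.11, 3.23 and 15.5 CPM as its lowest, median and highest germ-free values, against 0.433, 1.32 and 2.85 CPM in conventional libraries. The arms overlapped, but 7 of 9 germ-free libraries exceeded every conventional one. The means were 5.06 ± 4.22 CPM in germ-free (SD, n = 9) and 1.36 ± 0.682 CPM in conventional mice (SD, n = 12), corresponding to 1.78 ± 0.39 on the log2 scale (SE, adjusted p = 0.00336).

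Cox8b, a subunit of complex IV of the respiratory chain, had 6.19, 8.77 and 28.3 CPM as its lowest, median and highest germ-free values, against 1.45, 3.08 and 7.55 CPM in conventional libraries. Again 7 of 9 germ-free libraries exceeded every conventional one. The means were 11.7 ± 7.15 CPM in germ-free (SD, n = 9) and 3.49 ± 1.73 CPM in conventional mice (SD, n = 12), corresponding to 1.69 ± 0.29 on the log2 scale (SE, adjusted p = 8.89e-04).

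The germ-free library at ZT22, replicate 2, was the highest of its arm for Dio2, Cidea, Cox8b and Kcnk3, at 4.14 times the germ-free median for Dio2, 4.80 for Cidea and 3.23 for Cox8b. This library carried 399.6 CPM of epididymis, testis and accessory gland markers, the highest of the germ-free arm, and their part in these values was not tested. Leaving out any single library kept all 3 calls, with the log2 fold change between 1.36 and 1.80 for Dio2, 1.54 and 1.94 for Cidea, and 1.47 and 1.83 for Cox8b. Without the 8 libraries rich in neighbouring-tissue markers (chosen once the data had been seen), Dio2 (1.49 ± 0.39, adjusted p = 0.0327), Cidea (1.38 ± 0.40, adjusted p = 0.0465) and Cox8b (1.37 ± 0.33, adjusted p = 0.0263) still rose. That subset held no conventional library at ZT02 and no germ-free library at ZT22. These values therefore compare the arms at ZT06, ZT10, ZT14 and ZT18 only. Cox8b and Cox7a1 are also muscle genes, and summed skeletal muscle markers ranged from 10.2 to 26.6 CPM in germ-free, against 19.4 to 54.7 CPM in conventional libraries. The germ-free maximum of 26.6 CPM was that of ZT22 replicate 2, against a germ-free median of 14.7 CPM. The part of muscle RNA in the Cox8b value of that library was not tested. Of 8 muscle markers tested 0 rose and 3 fell (37.5%): the actin-binding protein gene Actn3 (-0.82 ± 0.20, adjusted p = 0.00621), the myosin gene Myh2 (-0.84 ± 0.24, adjusted p = 0.0147) and the actin gene Acta1 (-1.17 ± 0.41, adjusted p = 0.0440). The myoglobin gene Mb did not pass (0.29 ± 0.21, adjusted p = 0.322).

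**Figure D1:**
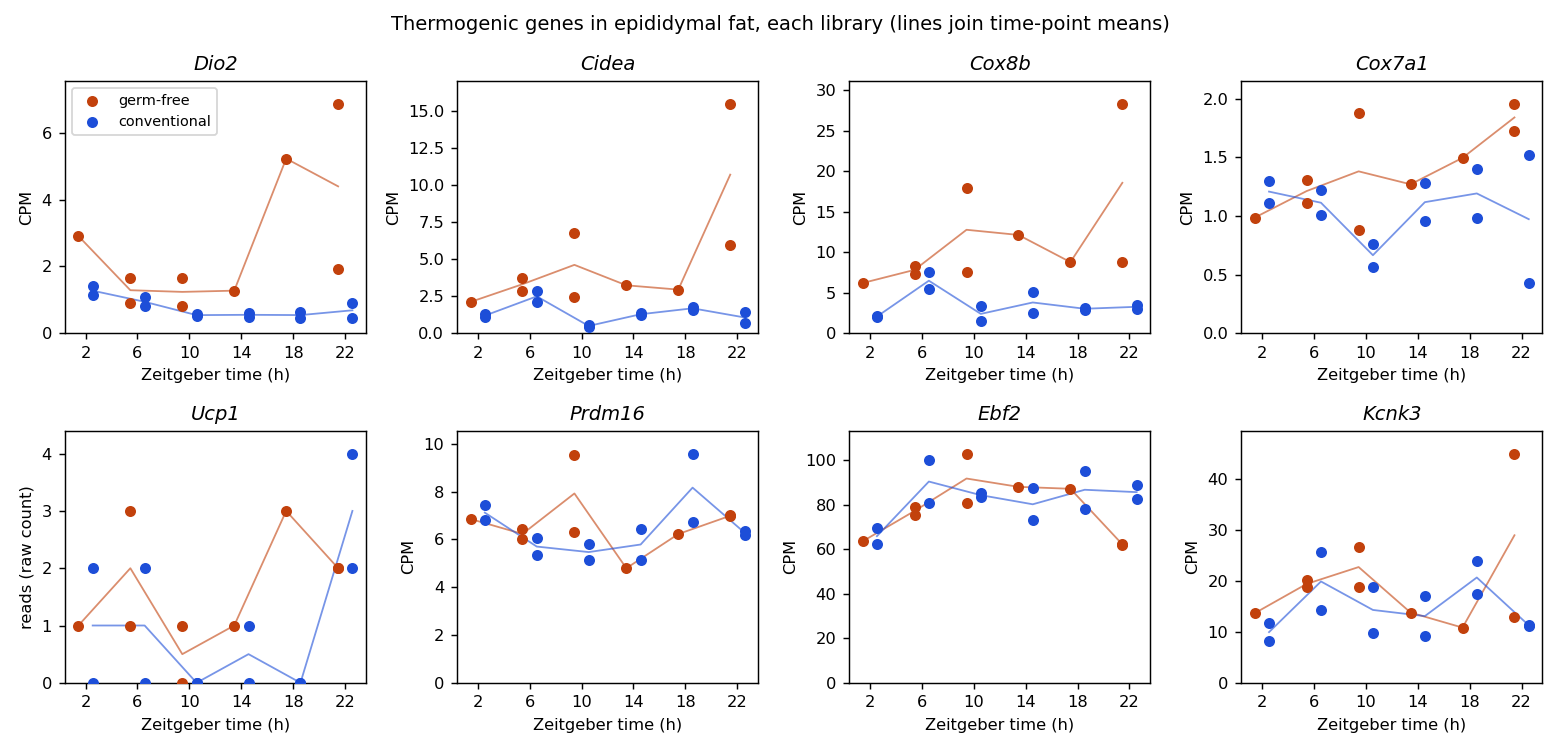
Level of each gene in each library (points) against zeitgeber time in hours, in CPM, or in raw reads for Ucp1; orange is germ-free, blue is conventional, and lines join the means at each time. Germ-free Dio2, Cidea and Cox8b reach 6.86, 15.5 and 28.3 CPM at ZT22, while Ucp1 stays at 0 to 4 reads in both arms.

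The remaining subunit, Cox7a1, had 0.883, 1.31 and 1.96 CPM as its lowest, median and highest germ-free values, against 0.424, 1.06 and 1.52 CPM in conventional libraries. Its log2 fold change was 0.45 ± 0.22 (adjusted p = 0.146), and 3 of 9 germ-free libraries exceeded every conventional one. Kcnk3, whose channel sets the membrane potential of brown fat cells, had 10.8, 18.7 and 45.0 CPM in germ-free, against 8.12, 13.0 and 25.6 CPM in conventional libraries, and its log2 fold change was 0.37 ± 0.26 (adjusted p = 0.325). Dropping ZT22 replicate 2 of the germ-free arm gave 0.12 for Kcnk3.

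The lineage regulators differed by less than the spread between libraries. Prdm16, which drives the brown fat programme and represses white fat genes, had 4.79, 6.42 and 9.54 CPM in germ-free, against 5.13, 6.28 and 9.58 CPM in conventional libraries, with a log2 fold change of 0.07 ± 0.11 (adjusted p = 0.685). The ranges of the arms were nearly the same. Ebf2, which marks brown and beige precursors and opens chromatin at thermogenic genes, had 61.9, 78.8 and 103 CPM in germ-free, against 62.3, 83.1 and 100.2 CPM in conventional libraries, with a log2 fold change of -0.10 ± 0.08 (adjusted p = 0.359). Only 1 germ-free library exceeded the conventional maximum of Ebf2. Summed adipose progenitor markers, the cells in which Ebf2 is also known, ranged from 502 to 758 CPM in germ-free and from 531 to 688 CPM in conventional libraries.

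The arms were then compared within parts of the day: morning (ZT02 and ZT06), dusk (ZT10 and ZT14) and late night (ZT18 and ZT22), with 3 germ-free and 4 conventional libraries in each. In the morning, 0 members passed by edgeR or DESeq2 and 0 had an unadjusted p under 0.05, where 1.46% of all genes passed. Morning log2 fold changes were 0.72 ± 0.40 for Dio2, 0.67 ± 0.53 for Cidea and 0.77 ± 0.49 for Cox8b. Cidea in the morning had 2.11, 3.74 and 2.86 CPM in germ-free, against 1.30, 1.06, 2.12 and 2.85 CPM in conventional libraries, so the arms overlapped.

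At dusk, Cidea and Cox8b rose, 2 of the 7 members tested, where 4.31% of all genes rose. Cidea had 6.78 and 2.45 CPM at ZT10 and 3.23 CPM at ZT14 in germ-free, against 0.533 and 0.433 CPM at ZT10 and 1.34 and 1.21 CPM at ZT14 in conventional libraries. The lowest germ-free value lay above the highest conventional one, as for 13.7% of all genes at dusk. The log2 fold change of Cidea was 2.25 ± 0.54 (adjusted p = 0.0226). Cox8b had 17.9 and 7.60 CPM at ZT10 and 12.1 CPM at ZT14 in germ-free, against 3.30 and 1.45 CPM at ZT10 and 5.08 and 2.48 CPM at ZT14 in conventional libraries, with no overlap and the same 13.7% beside it. Its log2 fold change was 2.03 ± 0.49 (adjusted p = 0.0228). Dio2 stood at 1.20 ± 0.41 (adjusted p = 0.0859) and passed only when ZT22 replicate 1 of the germ-free arm was dropped (adjusted p = 0.0425). The dusk calls of both genes were lost without either conventional library at ZT10, the germ-free library at ZT10, replicate 1, or that at ZT14, with adjusted p up to 0.187 for Cidea and 0.171 for Cox8b. That of Cox8b was also lost without the conventional library at ZT14, replicate 2 (adjusted p = 0.0590).

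Late at night, Dio2, Cidea and Cox8b rose, 3 of 7 members, where 9.36% of all genes rose. Dio2 had 5.22 CPM at ZT18 and 1.93 and 6.86 CPM at ZT22 in germ-free, against 0.446 and 0.632 CPM at ZT18 and 0.913 and 0.452 CPM at ZT22 in conventional libraries. Every germ-free value was above every conventional one, as for 12.7% of all genes late at night, and the log2 fold change was 2.93 ± 0.42 (adjusted p = 8.31e-04). Cidea had 2.94 CPM at ZT18 and 5.93 and 15.5 CPM at ZT22 in germ-free, against 1.56 and 1.79 CPM at ZT18 and 1.41 and 0.707 CPM at ZT22 in conventional libraries. The arms of Cidea did not overlap either, against the same 12.7%, and the log2 fold change was 2.58 ± 0.54 (adjusted p = 0.00514). Cox8b rose by 2.29 ± 0.50 on that scale (adjusted p = 0.00595). When ZT22 replicate 2 of the germ-free arm was dropped, the calls of Cidea (1.68, adjusted p = 0.0661) and Cox8b (1.48, adjusted p = 0.0768) were lost, and that of Dio2 was kept. Ebf2 passed late at night only when the germ-free library at ZT18 was dropped (-0.50, adjusted p = 0.0450), at -0.29 ± 0.15 with it. Without the 8 libraries rich in neighbouring-tissue markers, which left 1 germ-free library at night that is assumed to vary like the others, 0 members and 0 of all genes passed by edgeR, where 3452 genes had an unadjusted p under 0.05. Dio2 then stood at 3.51 (adjusted p = 0.0588), Cidea at 1.39 (adjusted p = 0.293) and Cox8b at 1.57 (adjusted p = 0.142) on the log2 scale.

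**Figure D2:**
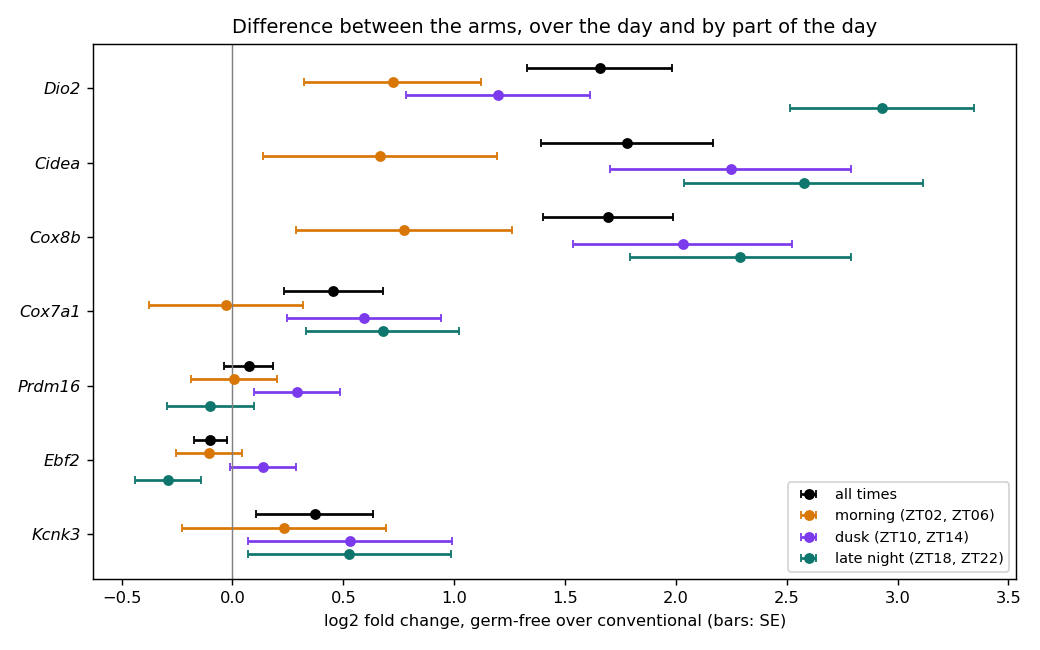
Log2 fold change of germ-free over conventional libraries for the 7 members tested, over all times (black) and in the morning, at dusk and late at night, with bars for SE. Dio2 stands at 0.72 in the morning and 2.93 late at night, and Prdm16 and Ebf2 lie near 0 over all times.

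Whether the difference between the arms itself changed over the day was tested by an interaction term. None of the 7 members passed by edgeR, nor did any other gene tested (0% of all genes), while 2133 genes and 2 members had an unadjusted p under 0.05. DESeq2 called 323 genes and 0 of the 5 members to which it gave an adjusted p, and it gave none for Dio2 and Cox7a1. The 2 members with an unadjusted p under 0.05 by edgeR were Dio2 (edgeR adjusted p = 0.248) and Cidea (edgeR adjusted p = 0.429). The rise late at night is therefore not shown to differ from that in the morning.

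A 24 h rhythm passed in germ-free fat for Dio2 alone among the 7 members, where 4.64% of all genes passed. Its fitted amplitude, the height of the curve above its mean, was 1.098 on the log2 scale with a peak at ZT20.9 (adjusted p = 0.0163). That call was lost when ZT22 replicate 2 (adjusted p = 0.0937) or ZT10 replicate 2 (adjusted p = 0.0683) of the germ-free arm was dropped, and without the 8 libraries rich in neighbouring-tissue markers (adjusted p = 0.0532). In conventional fat 0 of 7 members passed by edgeR, where 0.813% of all genes passed, and 0 of 5 by DESeq2, which again gave no adjusted p for Dio2 and Cox7a1. Dio2 was the 1 member there with an unadjusted p under 0.05 (adjusted p = 0.297), with an amplitude of 0.62 and a peak at ZT2.81. The difference of the Dio2 rhythms gave an adjusted p of 0.583. Over all genes that test gave 0 calls (0%) by edgeR, 1415 at an unadjusted p under 0.05 and 48 by DESeq2, which called 0 of 5 members and gave no adjusted p for Dio2 and Cox7a1.

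Ebf2 in germ-free fat had an amplitude of 0.31 with a peak at ZT12.4 and just missed the threshold (adjusted p = 0.0692). DESeq2 called it (adjusted p = 0.0133), as did edgeR when replicate 1 of the conventional arm at ZT02 (adjusted p = 0.0447) or ZT06 (adjusted p = 0.0374) was dropped. For Cidea, Cox8b, Cox7a1, Prdm16 and Kcnk3 the adjusted p for a rhythm was between 0.485 and 0.890 in germ-free and between 0.501 and 0.927 in conventional fat.

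Each of 4 members was next set against a close relative in the same library, as the ratio of counts per exon length, which does not depend on scaling between libraries. With that of Ucp1, 5 ratios were tested by 2-sided exact permutation of the arms within time points, and p-values were adjusted over the 5. Cox8a is the form of subunit 8 present in most tissues, and it rose by itself by 0.39 ± 0.07 on the log2 scale (adjusted p = 0.00134). The log2 ratio of Cox8b to Cox8a averaged -4.35 ± 0.544 in germ-free (SD, n = 9) and -5.65 ± 0.534 in conventional libraries (SD, n = 12). The difference was 1.30 (exact permutation p = 1.71e-04, adjusted p = 4.29e-04, where 1.71e-04 is the smallest p these relabellings can give). Cox8b thus rose more than its common relative, though in germ-free libraries it still reached only 32.3 RPKM on average against 589.9 RPKM for Cox8a.

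The other oxidase pair behaved otherwise. Cox7a2, the common form of subunit 7a, rose by 0.45 ± 0.08 on the log2 scale (adjusted p = 9.86e-04), much the same size as the log2 fold change of Cox7a1. The log2 ratio of Cox7a1 to Cox7a2 averaged -5.41 ± 0.298 in germ-free and -5.38 ± 0.477 in conventional libraries (SD), a difference of -0.02 (exact permutation p = 0.919, adjusted p = 0.919) whose sign turned in 7 of 21 fits that leave out a library.

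Cidec, the abundant relative of Cidea in white fat that forms the large single droplet, did not pass (-0.06 ± 0.11, adjusted p = 0.734) and averaged 1420 RPKM in germ-free and 1476 RPKM in conventional libraries. The log2 ratio of Cidea to Cidec averaged -8.74 ± 1.06 in germ-free and -10.6 ± 0.751 in conventional libraries (SD), a difference of 1.82 (exact permutation p = 1.71e-04, adjusted p = 4.29e-04). Cidec therefore exceeded Cidea by far in every library. Ebf1, a relative of Ebf2 that is also expressed in white adipocytes, fell by 0.37 on the log2 scale (SE 0.07, adjusted p = 9.50e-04), and the log2 ratio of Ebf2 to Ebf1 was higher by 0.28 in germ-free libraries, at -1.72 ± 0.240 against -2.005 ± 0.120 in conventional libraries (SD, exact permutation p = 0.00189, adjusted p = 0.00314).

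The ratio of Ucp1 to Ucp2 rests on 0 to 4 Ucp1 reads per library, so its size depends on the count added. The log2 difference was 0.91 with 1 count added (exact permutation p = 0.0117, adjusted p = 0.0146), 1.21 with 0.5 and 0.69 with 2. The ratio is not read as a change of Ucp1, because so few Ucp1 reads underlie it. Ucp2, a mitochondrial carrier, itself fell (-0.53 ± 0.12, adjusted p = 0.00366), and its part in the ratio was not tested.

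**Figure D3:**
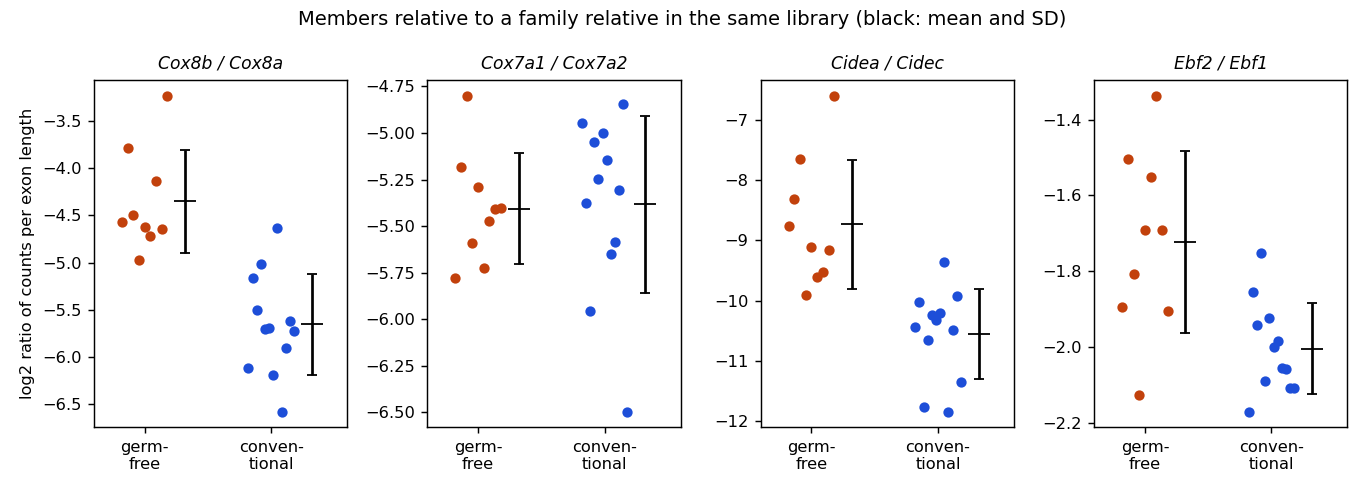
Log2 ratio of counts per exon length of a member to its family relative in each library (points), germ-free left of conventional, with black marks for mean and SD. Cox8b to Cox8a and Cidea to Cidec are shifted upward in germ-free libraries by 1.30 and 1.82, and Cox7a1 to Cox7a2 differs by -0.02.

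The members did not move as 1 block between libraries. Within the germ-free arm, log2 CPM of Cidea correlated with that of Cox8b at r = 0.90, and of Cidea with Kcnk3 at r = 0.76, whereas Cidea and Prdm16 gave r = -0.02 and Cidea and Ebf2 r = -0.50. Within the conventional arm those values were 0.69, 0.43, 0.20 and 0.11. The germ-free library at ZT22, replicate 2, was the highest of its arm for Cidea, Cox8b and Kcnk3. It can weigh heavily on the germ-free r, which was not computed without it. Dio2 and Cox8b gave r = 0.46 within germ-free and 0.06 within conventional libraries. These are descriptions over 9 and 12 libraries that differ in time of day and depth, and both can enter r.

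The genes most like the members over the 21 libraries, by Pearson's r of log2 CPM, are given as a description with no test. The nearest to Cox8b were Hadha, a subunit of the trifunctional protein of fatty acid oxidation (r = 0.96, Spearman's rho = 0.94), Cox8a (r = 0.96, rho = 0.96) and Arl2 (r = 0.96, rho = 0.93). The nearest to Cidea were Mpc1, a subunit of the mitochondrial pyruvate carrier (r = 0.95, rho = 0.97), the glycolytic enzyme Eno1 (r = 0.93, rho = 0.89) and Echdc1 (r = 0.93, rho = 0.92). Dio2 was nearest to the splicing factor Prpf19 (r = 0.95, rho = 0.91), Kptn (r = 0.94, rho = 0.91) and Fam49b (r = 0.93, rho = 0.93). Each of these correlations also held the difference between the arms.

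Prdm16 and Cox7a1 had no neighbour as close. The nearest to Prdm16 were Alg2 (r = 0.73), Tnfaip1 (r = 0.67) and Etl4 (r = 0.67), and to Cox7a1 Ap4s1, Ublcp1 and Prdx1 (r = 0.78 each). Ebf2 was nearest to Lnpep (r = 0.83), Nedd4 (r = 0.83) and Pde3b (r = 0.80), and Kcnk3 to Ccni (r = 0.84), Stt3b (r = 0.83) and Mtap6 (r = 0.82).

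The other lists are read against all genes tested, of which 15.3% rose and 11.6% fell. Over all genes tested the median log2 fold change was 0.03, and over the 7 members it was 0.45. Among other genes of thermogenic adipocytes, 5 of 16 tested rose (31.25%), 0 fell and 11 did not pass, with a median of 0.32. They included Clstn3, whose locus also encodes an adipocyte protein of lipid droplets (0.93 ± 0.18, adjusted p = 0.00159), Letmd1, a mitochondrial protein needed for heat production in mouse brown fat (0.36 ± 0.07, adjusted p = 0.00192), and Slc25a20, which carries acylcarnitines into mitochondria (0.43 ± 0.09, adjusted p = 0.00275). Aifm2 did not pass (0.09 ± 0.10). Elovl3, an elongase gene of brown fat named after its values were seen, varied from 0.0533 to 5.25 CPM in germ-free and from 0 to 2.71 CPM in conventional libraries and did not pass (1.82 ± 0.87, adjusted p = 0.135).

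Of 9 beige adipocyte markers tested, 1 rose (11.1%), 2 fell (22.2%) and 6 did not pass, with a median of -0.25. Slc36a2, an amino acid transporter, rose to 195 ± 49.5 CPM in germ-free (SD, n = 9), against 112 ± 29.2 CPM in conventional mice (SD, n = 12), a log2 fold change of 0.79 ± 0.15 (adjusted p = 0.00158). Tmem26 (-0.71 ± 0.26, adjusted p = 0.0491) and Ear2 (-0.59 ± 0.14, adjusted p = 0.00655) fell, where Ear2 has close relatives in the mouse genome and its counts are uncertain. Epsti1 stood at 0.11 ± 0.11 (adjusted p = 0.476).

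Transcriptional regulators of the brown lineage went both ways: of 22 tested, 4 rose (18.2%, near the share over all genes), 5 fell (22.7%) and 13 did not pass, with a median of 0.03. Ppargc1a, named after its values were seen, rose (0.52 ± 0.16, adjusted p = 0.0281). It is counted both here and among the other genes of thermogenic adipocytes. Esrra, which encodes a nuclear receptor of mitochondrial genes, rose to 47.2 ± 9.34 CPM in germ-free (SD, n = 9), against 33.8 ± 3.67 CPM in conventional mice (SD, n = 12), a log2 fold change of 0.49 ± 0.09 (adjusted p = 9.18e-04). Ctbp1, a corepressor that works with PRDM16, rose by 0.23 ± 0.04 (adjusted p = 8.23e-04). Tle3, a corepressor that counters PRDM16, fell to 60.9 ± 18.5 CPM in germ-free, against 103 ± 28.4 CPM in conventional mice (SD), a log2 fold change of -0.73 ± 0.16 (adjusted p = 0.00289). The other passing regulators are named here after their values were seen. Nfia (-0.36 ± 0.08, adjusted p = 0.00498) and Ehmt1 (-0.14 ± 0.04, adjusted p = 0.0120) fell. Zfp423 (-0.29 ± 0.09, adjusted p = 0.0250) and Nrip1 (-0.23 ± 0.08, adjusted p = 0.0456) fell too, while Ppara rose (0.34 ± 0.12, adjusted p = 0.0403). Pparg, the master factor of fat cells, had 0.29 ± 0.12 (adjusted p = 0.0848).

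Genes of adrenergic and cyclic AMP signalling mostly did not pass: of 18 tested, 2 rose (11.1%), 1 fell (5.56%) and 15 did not pass, with a median of 0.01. Adra2a, a receptor that lowers cyclic AMP, fell with no overlap, and its levels lay between 0.318 and 0.883 CPM in germ-free libraries, against 1.03 and 1.599 CPM in conventional libraries (log2 fold change -1.14 ± 0.16, adjusted p = 2.84e-04). Pde4d, which breaks down cyclic AMP, rose by 0.31 ± 0.08 (adjusted p = 0.0118), and Prkaca, the catalytic subunit of protein kinase A, by 0.24 ± 0.07 (adjusted p = 0.0202). Pde3b had 0.07 ± 0.08 (adjusted p = 0.599). Adrb3, the beta-adrenergic receptor of fat cells, named after its values were seen, had 587 ± 144 CPM in germ-free (SD, n = 9) and 557 ± 127 CPM in conventional mice (SD, n = 12) and did not pass (0.07 ± 0.14, adjusted p = 0.759).

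Genes of energy-wasting cycles that do not need UCP1, which consume creatine phosphate, calcium gradients or ATP exchange, gave 2 of 11 higher (18.2%), 1 lower (9.09%) and 8 not passing, with a median of -0.11. The ADP/ATP carriers Slc25a5 (0.54 ± 0.08, adjusted p = 3.25e-04) and Slc25a4 (0.25 ± 0.05, adjusted p = 0.00126) rose, the calcium channel gene Ryr1 fell (-0.46 ± 0.15, adjusted p = 0.0313), and the calcium pump gene Atp2a2 did not pass (-0.11 ± 0.06). Of 7 secreted factors of thermogenic fat tested, 2 rose (28.6%), 0 fell and 5 did not pass, with a median of 0.15. Nrg4, a neuregulin released by brown fat, rose by 0.47 ± 0.10 (adjusted p = 0.00389) and the chemokine gene Cxcl14 by 0.52 ± 0.17 (adjusted p = 0.0315), while Angptl4 did not pass (-0.20 ± 0.31).

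**Figure D4:**
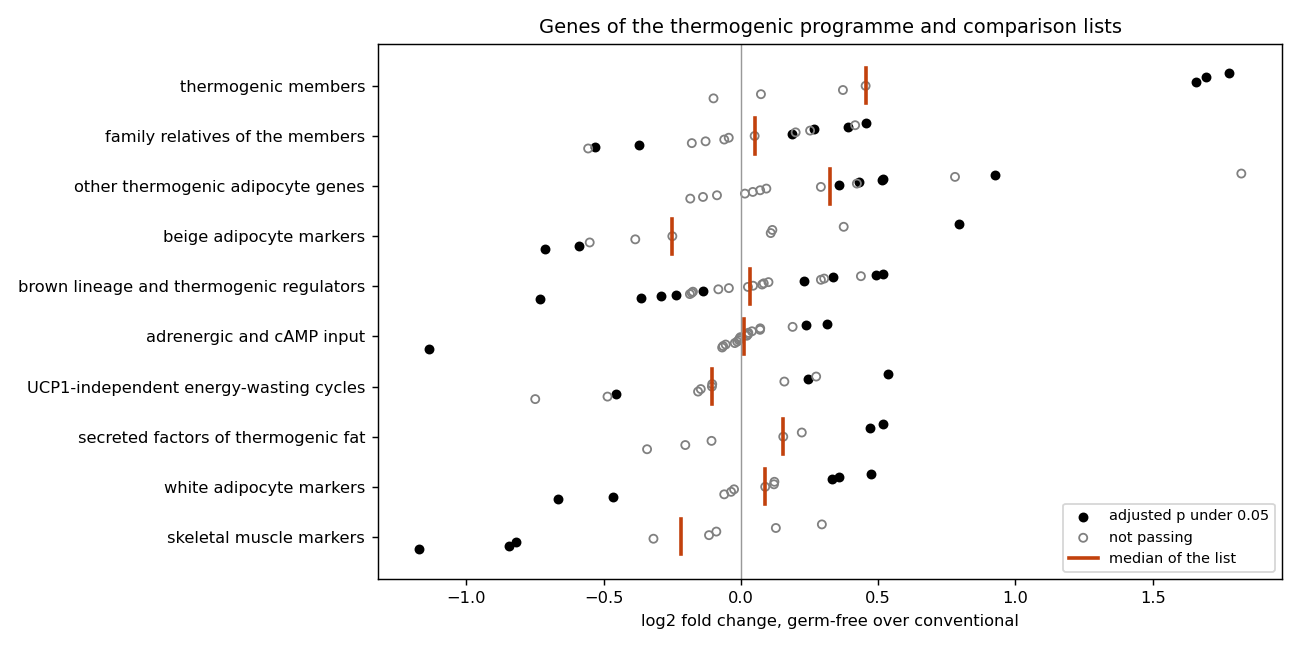
Log2 fold change of germ-free over conventional libraries for each gene tested of the members and of 9 lists, filled where the adjusted p is under 0.05, with the median of each list as an orange bar. Dio2, Cidea and Cox8b stand between 1.66 and 1.78, apart from the remaining members at -0.10 to 0.45.

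In GENCODE M21 on GRCm38, the build also known as mm10, all 8 members are protein-coding. Dio2 lies on chromosome 12 at 90724552 to 90738438, which starts downstream of the RefSeq window. Cox8b lies on chromosome 7 at 140898945 to 140900446 and Cox7a1 on the same chromosome at 30184144 to 30186078. Ucp1 lies on chromosome 8 at 83290352 to 83298452, Cidea on chromosome 18 at 67343604 to 67367785 and Prdm16 on chromosome 4 at 154316125 to 154636873. Ebf2 lies on chromosome 14 at 67233292 to 67430918 and Kcnk3 on chromosome 5 at 30588170 to 30625271.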

How the data were processed

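Per the labels' protocols, the fat was homogenised, RNA was purified on columns and depleted of ribosomal RNA, and strand-specific libraries were read from both ends. The submitters' processing notes name STAR 2.4.0i and mm10. Which program counted reads, with what treatment of strand and multiple hits and on which annotation, is not given in the sources used here. What the authors deposited is a table of raw exon counts of 38087 genes and the exon length of each. Symbols are those of the table.

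Counts were tested with edgeR 4.0.16 in R 4.3.3 across all genes: filterByExpr kept 18334, TMM scaled the libraries, and Benjamini-Hochberg adjusted p had a threshold of 0.05. The models were arm with time as a 6-level factor, a 24 h cosine and sine per arm, and arm by part of the day. CPM are TMM-scaled, and log2 CPM has a prior count of 2. The SE of an edgeR log2 fold change was derived from its test, as the absolute log2 fold change over the square root of F. DESeq2 1.42.0 and limma 3.58.1 were loaded, and DESeq2 served as an alternative. The ratio tests relabelled arms within time points (5832 relabellings, 1 count added). The edgeR tests were also run on simulated data, with changes placed only in genes of mean log2 CPM above 1. The outcome is not given here, and it does not cover Dio2 (0.70) and Cox7a1 (0.33), which lie below that level. Alternatives were another scaling, no filter, DESeq2, a replicate block, leaving out libraries, fewer times and no time term.

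The members and lists were chosen with earlier results of these data known. All members were named. Each other list gave up to 3 passing genes of smallest p and the most abundant that did not pass, and the relatives in the 5 ratios were named. Likeness took the 3 highest Pearson correlations among named genes of mean log2 CPM of at least 1. Any other gene is said to be named after its values were seen. The lists tested but not described gene by gene were cell type markers: progenitor (2 of 8 fell), vascular smooth muscle (1 of 8 fell), endothelial (2 of 6 rose, 1 fell), Schwann cell and nerve (0 of 4 passed), mesothelial (1 of 6 fell), macrophage (2 of 7 fell), cardiac and slow muscle (0 of 2 passed), ciliated duct (0 of 4 passed), reproductive tract (0 of 4 passed), liver (0 of 7 passed) and white adipocyte (3 of 11 rose, 2 fell). Wt1, which fell, is counted in both the mesothelial and the white adipocyte list. Of 18 family relatives listed, 15 were tested, 4 rose and 2 fell. Plots used Python 3.11.15 and matplotlib 3.10.9.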

Additional observations from a re-analysis of the deposited data

Results flagged for a closer look

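In the germ-free library at ZT02, replicate 2, 2 marker sums lay apart from the other 8 germ-free libraries by Dixon's test: adipose progenitor markers at 758 CPM, where all germ-free libraries ranged from 502 to 758 CPM, and mesothelial markers at 579 CPM, where they ranged from 210 to 579 CPM. Ucp1 and its ratio to Ucp2 were left out of this test. No other member and no other ratio was flagged among 44 groups tested, and chance flags about 5% of groups. In this library Ebf2 stood at 63.6 CPM and Dio2 at 2.91 CPM, and the part of the marker sums in these values was not tested.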

How the results depend on the processing

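The count of 3 members higher in germ-free fat was kept with another scaling, no filter, DESeq2, the replicate block, no time term and each of 21 libraries left out. At ZT06, ZT10 and ZT22 alone it was 2, since Dio2 was lost (1.43, adjusted p = 0.0705), and over all genes 1712 passed there against 4928 in all libraries. Without the 8 libraries rich in neighbouring-tissue markers, 2649 genes passed for the arms, 26 for a conventional rhythm, 547 for a germ-free rhythm (0 members), 0 in the morning, 685 at dusk, 0 late at night (0 members) and 3 for the interaction. The counts of 0 are by edgeR, with 2002 genes in the morning and 3452 late at night below 0.05 before adjustment, and DESeq2 was not run on that subset. In that subset both arms remained only at ZT06, ZT10, ZT14 and ZT18, and the conventional morning libraries were at ZT06 alone. Without a filter, 98 genes passed in the morning and 725 at dusk, against 268 and 1314. DESeq2 gave 815 conventional and 2044 germ-free rhythms (2 members), against 149 and 850 (1 member), 48 rhythm differences, 775 genes in the morning, 2052 at dusk and 323 interactions. Leaving out single libraries gave 10 to 473 genes in the morning, 6 to 1910 at dusk (0 to 3 members), 805 to 3364 late at night (1 to 4 members), 54 to 262 conventional and 385 to 1110 germ-free rhythms (0 to 2 members), 0 to 3 rhythm differences and 0 to 4 interactions. The causes were not tested.

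The replicate number shared by libraries of both arms was used as a replicate block, with 4627 genes and 3 members passing for the arms and 133 genes in the morning. Replicate 1 minus replicate 2 correlated between the arms across genes at 0.556 at ZT06, 0.218 at ZT10 and -0.183 at ZT22, so the numbers were not taken to pair the libraries. Under the block no member's call changed, and Cox7a1 in the morning turned to 0.036.

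Some values turned sign without passing, and not all of them were near 0. With all libraries, Kcnk3 stood at 0.37 over all times, 0.23 in the morning and 0.53 late at night, and Prdm16 at 0.29 at dusk. Dropping ZT22 replicate 2 of the germ-free arm turned Kcnk3 late at night to -0.44. Prdm16 in the morning was -0.0015 without a filter. Without the 8 libraries, Prdm16 was -0.033 and Kcnk3 -0.14 in the fit with time as a factor. Kcnk3 was then -0.24 in the morning and -0.69 late at night. That morning value set conventional libraries at ZT06 against germ-free ones at ZT02 and ZT06, so arm and time are mixed in it. With single libraries left out, Prdm16 ranged from -0.020 to 0.13 over all times, -0.083 to 0.085 in the morning, -0.034 to 0.48 at dusk and -0.17 to 0.048 late at night, Kcnk3 from -0.44 to 0.86 late at night, Cox7a1 from -0.15 to 0.063 and Ebf2 from -0.20 to 0.035 in the morning, and the ratio of Cox7a1 to Cox7a2 from -0.12 to 0.026. Depth limits the precision for Ucp1 (0 to 4 reads). Without a filter it had a log2 fold change of 0.64 ± 0.70 (edgeR adjusted p = 0.705), which depends on the prior count.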
